A study of Mus musculus with 35 samples.

Results

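The transcripts of the medulla were followed from postnatal day 8 (P8) to 9 weeks in SCA7 266Q/5Q mice, in which one *Atxn7* allele carries a run of 266 glutamine codons and the other a run of 5. The members were chosen by their labels: 5 libraries of SCA7 medulla at 9 weeks against 2 at P8, that is 7 of the 35 RNA-seq libraries of the study, each from a different mouse. The other libraries come from wild-type (WT) C57Bl/6J mice and from the cervical spinal cord, and there are 2 libraries of SCA7 medulla at 5 weeks, used here only for their levels. Every SCA7 animal carried the same pair of alleles from birth, the P8 animals included, and the study takes 9 weeks as the end stage of the disease, so age and disease stage cannot be told apart within this genotype.

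The medulla is the lowest part of the brainstem and holds the neurons that drive breathing, swallowing and the tongue. In the first weeks after birth cell division in it declines, neurons end axon growth and take up mature ion channels, and oligodendrocyte precursors become cells that wrap axons in myelin. Myelin is built mostly of lipid and a few very abundant proteins, and its assembly draws on cholesterol made in the tissue. Ataxin-7, the product of *Atxn7*, is a subunit of a chromatin-modifying coactivator complex.

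The libraries fell into a deep and a shallow class. Calls within each class alone are given below, and a fit or list median with no class named holds both. Over 1000000 counts were found in P8 replicate 1 and in 9-week replicates 4 and 5 (30555388 to 32784192 counts, called deep here), and 95917 to 396417 counts in P8 replicate 2 and 9-week replicates 1, 2 and 3 (called shallow). At least 10 counts were reached by 17545 to 18198 genes in a deep library and by 2004 to 2979 genes in a shallow one. The limit that a count of 0 allows, 3 counts, lay at 0.0770 to 0.0839 normalised counts per 1000000 (CPM) in the deep and at 20.5 to 27.4 CPM in the shallow libraries, for counting error only. 9-week replicate 2 stood apart: 60.7% of its counts fell on mitochondrial genes, against 14.1% to 15.6% in the other shallow libraries and 3.21% to 3.75% in the deep ones. 9-week replicates 1 and 3 were close to each other but differed beyond sampling noise (chi-square per degree of freedom 1.065, p = 0.000826), and all 5 were kept as separate samples. The labels do not say how the animals were assigned to preparations, and a p-value here measures the spread between these libraries.

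The tissue labels of the P8 libraries went against genes of body position. *Hox* genes from the caudal part of the clusters are used mainly along the spinal cord, whereas *Dbh* (noradrenaline synthesis), *Tph2* and *Slc6a4* (serotonin synthesis and uptake) mark monoamine cell groups of the brainstem. The summed level of *Hoxc6*, *Hoxc8*, *Hoxc9*, *Hoxa9* and *Hoxb9* was 378 and 338 CPM in the 2 P8 libraries labelled medulla, 0 to 6.82 CPM in the 5 9-week medulla libraries and 87.2 to 231 CPM in the 5 9-week SCA7 cervical spinal cord libraries. In the 2 P8 SCA7 libraries labelled cervical spinal cord it was 0 to 2.70 CPM. The 3 brainstem genes summed to 0 to 0.531 CPM in the P8 libraries labelled medulla and to 16.4 to 53.5 CPM at 9 weeks, and reached 18.9 CPM in 1 of the P8 libraries labelled cervical spinal cord. The other held no count of either group of genes. The P8 WT libraries labelled medulla showed the spinal pattern too, at 180 and 267 CPM of the 5 *Hox* genes. The 1 P8 WT library labelled cervical spinal cord, which is deep, held 2.86 CPM of the *Hox* genes and 57.1 CPM (2379 counts) of the brainstem genes. As labelled, age and level of the neuraxis therefore cannot be told apart between P8 and 9 weeks.

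**Figure D1:**
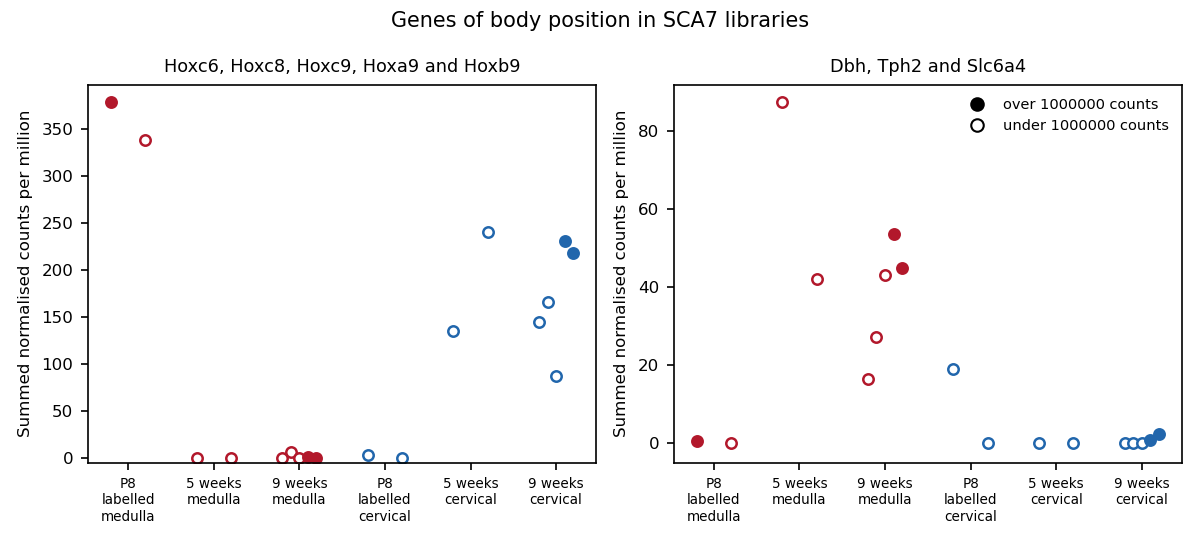
Summed normalised CPM of 5 *Hox* genes (left) and 3 brainstem genes (right) in each SCA7 library, by age and labelled tissue; filled points are libraries over 1000000 counts and open points those under it. The P8 libraries labelled medulla (378 and 338 CPM of *Hox* genes) sit with or above the older cervical spinal cord libraries, and those labelled cervical spinal cord sit near 0.

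For this reason the change was fitted 3 times: with the P8 libraries labelled medulla, with the 2 P8 SCA7 libraries labelled cervical spinal cord in their place, and with both tissues of each mouse thinned to the same total and summed, which no exchange of labels within a mouse can change. The 3 comparisons share libraries and are no independent evidence of each other, and the last covers medulla and cervical spinal cord together. Both alternatives were added after the *Hox* values had been seen. The P8 SCA7 libraries labelled cervical spinal cord are both shallow (323231 and 105968 counts). Thinning within a mouse to the smaller total left no deep P8 sum either. The older groups hold deep and shallow libraries, so depth and age cannot be fully told apart in either alternative. A value with no other mention is that of the libraries as labelled. In bulk tissue, fewer cells of a type and less RNA per cell cannot be told apart.

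As labelled, 284 of 19213 genes tested passed an adjusted p of 0.05 (1.48%) by edgeR's quasi-likelihood test with Benjamini-Hochberg adjustment, 65 higher (0.338%) and 219 lower (1.14%) at 9 weeks. Without 9-week replicate 2 the counts were 627 higher (3.27%) and 1128 lower (5.88%), and all 284 genes stayed called. Leaving out P8 replicate 1 left 66 calls, P8 replicate 2 left 89, 9-week replicate 1 left 103, replicate 3 left 128, replicate 4 left 177 and replicate 5 left 166. Whichever library was left out, 29 of the lower and 2 of the higher genes stayed called. Non-overlap of the ages was common: all 9-week libraries lay on 1 side of both P8 libraries in 3027 of the genes tested (15.8%). The same held for 244 of the 284 called genes. Against the P8 libraries labelled cervical spinal cord 154 genes were higher (0.824%) and 200 lower (1.07%). With the tissues of each mouse summed, 607 genes were higher (3%) and 692 lower (3.42%).

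Among the deep libraries alone, 2 at 9 weeks against 1 at P8, 4458 genes were called higher (23.3%) and 5296 lower (27.7%), so that a call there says little about a gene. Among the shallow libraries, 3 against 1, 6 genes were called of 4162 tested (0.144%), all lower, among them *Tubb2b*, *Ugt8a*, *Col1a1*, *Col1a2* and *Col3a1*. The single P8 library of each depth class has no replicate of its own, and the spread was taken from the 9-week libraries. Without 9-week replicate 2 the shallow libraries gave 331 calls, and without replicate 1 or 3 they gave 1 and 0.

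Genes of immature neurons and axon growth were the group with the most calls, 13 of 22 lower and none higher, with a median log2 fold change of -2.32 beside 0.15 over all genes tested. *Tubb2b*, a β-tubulin of growing neurons, was at 782 and 768 CPM at P8 and at 49.1, 47.7, 57.7, 53.5 and 50.0 CPM in 9-week replicates 1 to 5. The groups did not overlap, and the 5 older libraries lay at 51.6 ± 4.01 CPM (SD, n = 5). The shallow 9-week values rest on 6, 7 and 8 counts. Their counting error is wider than that SD, so their closeness is no measure of the spread between animals. *Tubb2b* fell by 3.88 ± 0.29 on the log2 scale (SE, edgeR adjusted p = 4.04e-06), and its log2 fold change was -3.96 among deep and -4.07 among shallow libraries. Against the P8 libraries labelled cervical spinal cord (1014 and 762 CPM) it fell by 4.23, and with tissues summed it fell by 4.03.

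*Marcks* and *Marcksl1*, which bind actin and the membrane in growth cones, behaved alike. *Marcks* was at 919 and 631 CPM at P8 and at 34.1 to 103 CPM at 9 weeks (74.9 ± 28.8, SD, n = 5), and fell by 3.30 ± 0.36. For *Marcksl1* the values were 499 and 485 CPM at P8 and 24.5 to 95.5 CPM at 9 weeks, the highest in replicate 2. *Tuba1a*, the main α-tubulin of young neurons, was at 1324 and 2012 CPM at P8 and at 229 to 477 CPM at 9 weeks. *Nnat*, an imprinted gene of newborn neurons, was at 393 and 348 CPM at P8 and at 24.5 to 75.0 CPM later. In none of these genes did a 9-week library reach a P8 library, a separation of the ages seen in 15.8% of all genes tested. *Dcx*, *Sox4*, *Sox11*, *Dpysl3*, *Dpysl5*, *Crmp1*, *Nrep* and *Basp1* were the other members that fell, by 1.58 to 3.03. *Tubb2b*, *Marcks*, *Marcksl1*, *Nrep*, *Dpysl3* and *Nnat* stayed called whichever library was left out, *Tuba1a* lost its call without P8 replicate 2 (adjusted p = 0.0517), and *Sox11*, *Dcx*, *Sox4*, *Crmp1*, *Dpysl5* and *Basp1* were called in 1, 2, 3, 4, 5 and 5 of the 7 fits that leave out a library. *Stmn1* (0.15, adjusted p = 0.94) and *Cd24a* (-0.24, adjusted p = 0.89) of the same list did not pass. Of the 22 members, 17 were lower against the P8 libraries labelled cervical spinal cord and 19 with tissues summed. *Marcks*, *Marcksl1*, *Tuba1a* and *Nnat* were called lower in both.

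**Figure D2:**
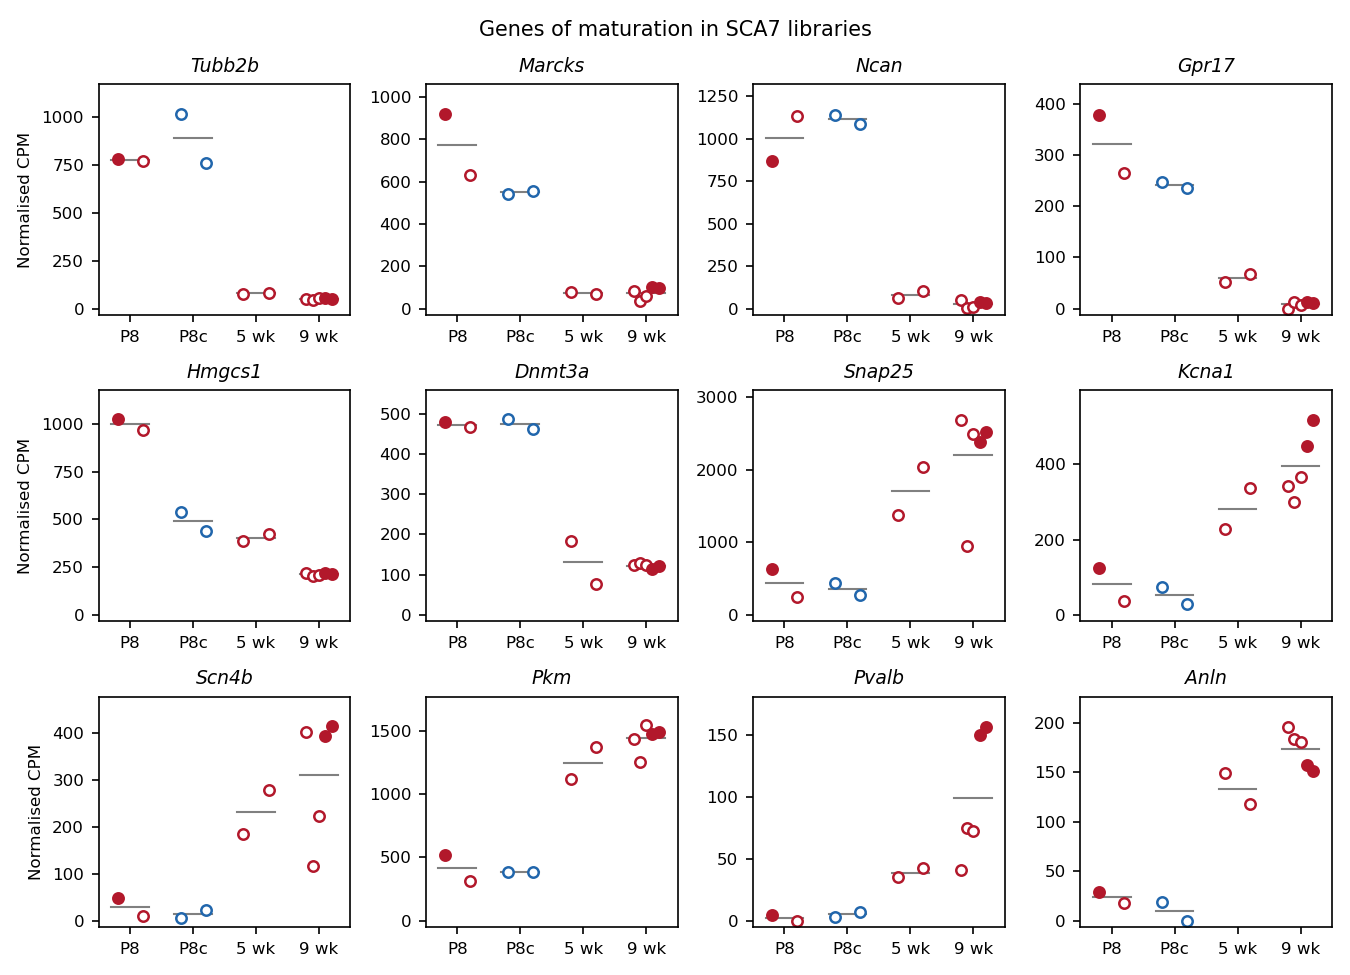
Normalised CPM of 12 genes in SCA7 libraries labelled medulla at P8, labelled cervical spinal cord at P8 (P8c, blue), and medulla at 5 and 9 weeks; filled points are libraries over 1000000 counts, open points those under it, and grey lines are group means. *Tubb2b* stands at 782 and 768 CPM at P8 and at 47.7 to 57.7 CPM at 9 weeks at either depth, and *Snap25* in 9-week replicate 2 (948 CPM) lies below the other 4 libraries of its age.

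Genes of cell division were lower as well, with 8 of 24 called, none higher and a median of -2.64. *Top2a*, which untangles DNA before mitosis, was at 43.4 and 27.4 CPM at P8 (1551 and 3 counts). At 9 weeks it had no count in the 3 shallow libraries and 0.436 and 0.109 CPM (17 and 4 counts) in the deep ones. *Mki67*, a nuclear protein of cycling cells, was at 45.3 and 27.4 CPM (1620 and 3 counts) at P8 and at 0.642 and 0.601 CPM in the deep 9-week libraries, with no count in the shallow ones. These values rest on the deep libraries: without P8 replicate 1, the deep one, the adjusted p was 0.0973 for *Top2a* and 0.118 for *Mki67*. *Rrm2*, *Cenpf*, *Ccnb1*, *Aurkb*, *Tpx2* and *Ube2c* made up the other calls, of which *Rrm2* was lost without P8 replicate 1 (adjusted p = 0.244), *Cenpf* was called in 4 of the 7 fits that leave out a library and the last 4 genes in 1 or 2. *Pcna* (-0.24, adjusted p = 0.90) and *H2afz* (-0.36, adjusted p = 0.81) of the same list did not pass. Summed over the list, the level was 623 and 595 CPM at P8, 118 to 193 CPM at 5 weeks and 136 to 185 CPM at 9 weeks. With tissues summed 16 of 24 members were lower, and against the P8 libraries labelled cervical spinal cord 5 of 20, *Top2a* and *Mki67* among the calls of both.

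The promoters of 4 of these genes are shown because the genes were called lower together and each holds CCAAT, a short motif known from genes of the cell cycle, 3 of them beside TTTGAA, another such motif. The 150 bases before a start site come from RefSeq (GRCm38.p6) and are written on the strand of the gene, with CCAAT and TTTGAA, in either orientation, in capitals. For *Mki67* and *Top2a* the RefSeq gene ends at 135716450 and 99024199, inside the stretch shown, so part of each stretch falls within the gene's span. *Top2a* (chr11:99024190-99024339, minus strand) holds 4 CCAAT and 1 TTTGAA, *Mki67* (chr7:135716380-135716529, minus strand) 1 and 2, *Ube2c* (chr2:164769779-164769928, plus strand) 2 and 1, and *Ccnb1* (chr13:100786487-100786636, minus strand) 2 and 0.
Top2a: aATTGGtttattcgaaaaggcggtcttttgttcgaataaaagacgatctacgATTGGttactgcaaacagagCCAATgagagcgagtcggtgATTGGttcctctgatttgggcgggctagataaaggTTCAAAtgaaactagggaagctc
Mki67: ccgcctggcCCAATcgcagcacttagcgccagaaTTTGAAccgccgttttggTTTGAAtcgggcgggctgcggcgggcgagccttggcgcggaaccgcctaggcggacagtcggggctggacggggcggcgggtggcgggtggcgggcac
Ube2c: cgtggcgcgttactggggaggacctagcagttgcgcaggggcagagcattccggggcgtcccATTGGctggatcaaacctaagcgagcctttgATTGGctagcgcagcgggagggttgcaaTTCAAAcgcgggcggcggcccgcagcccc
Ccnb1: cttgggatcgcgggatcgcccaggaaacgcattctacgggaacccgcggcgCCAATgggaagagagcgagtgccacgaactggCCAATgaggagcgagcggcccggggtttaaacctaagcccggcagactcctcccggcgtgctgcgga
Of the 8 called genes 6 had a promoter in the table (*Aurkb* and *Tpx2* had none). Within the 250 bases before the start, CCAAT was found on either strand in 6 of the 6 and in 34.5% of 27025 promoters, and TTTGAA in 3 of the 6 and in 16.3% of all. Over the 18 genes of the whole list with a promoter, called or not, the shares were 88.9% and 38.9%. A match is a description of the letters and not a binding site.

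Among 14 genes of oligodendrocyte precursors 2 were lower and none higher. *Gpr17*, a receptor of precursors about to mature, was at 378 and 265 CPM at P8, at 52.6 and 67.5 CPM at 5 weeks and at 0, 13.6, 7.21, 14.0 and 10.7 CPM at 9 weeks. The ages did not overlap, and *Gpr17* fell by 4.91 ± 0.52 (edgeR adjusted p = 7.05e-05). *Pdgfra*, the growth factor receptor of these precursors, also passed (-2.07, adjusted p = 0.0176) and was called in 3 of the 7 fits that leave out a library. The other members did not pass as labelled. *Bcas1*, of this list and active in newly formed oligodendrocytes, differed in the other direction (1.21, adjusted p = 0.351). Lower members numbered 3 against the P8 libraries labelled cervical spinal cord and 8 with tissues summed, where *Bcas1* was higher (1.21, adjusted p = 0.00403), with *Gpr17* and *Pdgfra* among the lower ones of both. Of 9 genes of the perineuronal and nodal matrix 2 were lower and 1 higher, the same counts as against the P8 libraries labelled cervical spinal cord, and 4 and 3 with tissues summed. *Ncan*, a proteoglycan of the juvenile matrix, went from 868 and 1134 CPM to 6.82 to 49.1 CPM, and fell by 5.15 ± 0.50. *Tnc*, another juvenile matrix protein, fell by 4.66, a call lost without P8 replicate 1 (adjusted p = 0.0701). *Hapln2*, a link protein of the nodes of Ranvier in adult white matter, was the higher one, going from 42.5 and 54.9 CPM to 115 to 198 CPM (adjusted p = 0.0489), and it was called in 1 of the 7 leave-one-out fits. *Tnc* and *Hapln2* were called in the same direction in both comparisons with other P8 libraries. *Fabp7*, a fatty acid binding protein of radial glia, went from 383 and 247 CPM to 0 to 16.9 CPM. *Dnmt3a*, a DNA methyltransferase active in the first weeks of life, was at 480 and 467 CPM at P8 and at 114 to 130 CPM at 9 weeks, and fell by 1.93 ± 0.29. Each of *Gpr17*, *Ncan*, *Fabp7* and *Dnmt3a* stayed called whichever library was left out, and also in both comparisons with other P8 libraries. *Dgkk*, a diacylglycerol kinase, and *Ybx1*, an RNA-binding protein, were 2 more of the 10 lower genes taken by adjusted p among those whose ages did not overlap, with 10 counts in a shallow library and 1 sign at both depths, and they did the same. *H19*, an imprinted RNA that is shut down after birth, was at 67.3 and 73.2 CPM at P8, at 0.795 and 0.874 CPM in the deep 9-week libraries and without a count in the shallow ones.

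Fewer genes rose. Of 17 genes of receptors and channels that appear late in development, 3 were higher and none lower, with a median of 1.42. *Kcna1*, a potassium channel beside the node of Ranvier, was at 125 and 36.6 CPM at P8, at 228 and 338 CPM at 5 weeks and at 343, 300, 368, 448 and 518 CPM at 9 weeks. It rose by 2.30 ± 0.44 (edgeR adjusted p = 0.0145). *Scn4b*, a sodium channel β subunit, rose by 3.30. For *Scn4b* the 9-week values ran from 116 CPM in replicate 2 to 413 CPM, all above the P8 values of 49.1 and 9.15 CPM. The calls of *Kcna1* and *Scn4b* were lost without P8 replicate 2 or 9-week replicate 1 (largest adjusted p 0.166 and 0.129). Summed over the list, the level was 2068 and 1299 CPM at P8 and 2674 to 4367 CPM at 9 weeks, with 9-week replicate 2 the lowest of its age. *Slc12a5*, the chloride pump of mature neurons, was a member that did not pass (-0.24, adjusted p = 0.86). Against the P8 libraries labelled cervical spinal cord 7 of 17 members were higher, and with tissues summed 9, *Kcna1* and *Scn4b* among both.

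*Snap25*, which drives vesicle fusion at the synapse, was at 636 and 247 CPM at P8 and at 948 CPM in 9-week replicate 2 and 2383 to 2690 CPM in the other 4. All 5 lay above both P8 libraries, replicate 2 least so, and the gene rose by 2.37 ± 0.47 (adjusted p = 0.0163 by edgeR). It kept the call in 3 of the 7 fits that leave out a library, and was called in both comparisons with other P8 libraries. *Slc17a7*, a vesicular glutamate transporter, was the other call among 21 synaptic vesicle genes, at 2.07 and 0 CPM at P8 and 54.6 to 189 CPM at 9 weeks. Against the P8 libraries labelled cervical spinal cord (43.3 and 73.2 CPM) its difference was 0.95 (adjusted p = 0.417), so this call moved with the labelled tissue at P8. *Pvalb*, a calcium buffer of fast-firing neurons, was at 4.86 and 0 CPM at P8 and at 40.9 to 157 CPM at 9 weeks, and was called higher in all 3 comparisons (4.74, 4.47 and 5.13). The call was lost without P8 replicate 1 (adjusted p = 0.0662), where the only P8 library left has no count of it. *Pkm*, pyruvate kinase, was at 521 and 311 CPM at P8 and at 1255 to 1550 CPM at 9 weeks (1442 ± 112, SD, n = 5), a rise by 1.83 ± 0.34. *Oxct1*, needed to burn the ketone bodies of the suckling period, fell by 1.52 ± 0.33, from 413 and 302 CPM to 90.0 to 164 CPM. The pair were the only calls among 18 genes of fuel use as labelled, and both were called in all 3 comparisons. With 1 library left out as labelled, *Pkm* was called in 4 of the 7 fits (largest adjusted p 0.207) and *Oxct1* in 2 (0.225), and neither was called without P8 replicate 1 or without P8 replicate 2.

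Genes of cholesterol synthesis fell in 4 of 17 members, with a median of -1.49 and no member higher. *Hmgcs1*, an early enzyme of the pathway, was at 1028 and 970 CPM at P8, at 385 and 422 CPM at 5 weeks and at 221, 205, 209, 218 and 213 CPM at 9 weeks. The 9-week libraries lay at 213 ± 6.48 CPM (SD, n = 5), and the gene fell by 2.20 ± 0.28 (edgeR adjusted p = 0.000622). The shallow ones held 27, 30 and 29 counts of it, with a counting error wider than that SD. *Cyp51* and *Sqle* fell by 2.17 and 1.72. *Fdft1* (0.04, adjusted p = 0.99) did not pass. The P8 libraries labelled cervical spinal cord held less *Hmgcs1* than those labelled medulla (541 and 439 CPM), and against them it fell by 1.33 ± 0.30 (adjusted p = 0.027). *Hmgcs1* kept its call whichever library was left out, *Cyp51* lost it without P8 replicate 1 (adjusted p = 0.0728), and *Sqle* was called in 1 of the 7 fits. With tissues summed 6 members were lower, and 2 against the P8 libraries labelled cervical spinal cord (*Hmgcs1* and *Cyp51*).

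The account of myelin genes depended on which libraries stood for P8. As labelled, 4 of 20 genes of mature oligodendrocytes were lower and none higher, with a median of -0.36. *Cldn11*, the tight junction protein of myelin, was at 603 and 631 CPM at P8, at 315 and 405 CPM at 5 weeks and at 114, 116, 166, 168 and 205 CPM at 9 weeks. No 9-week library reached a P8 or a 5-week library, and *Cldn11* fell by 1.96 ± 0.32 (edgeR adjusted p = 0.00415). Against the P8 libraries labelled cervical spinal cord, at 241 and 308 CPM, the difference was -0.94 ± 0.34 (adjusted p = 0.212), and with tissues summed -1.08 ± 0.21 (adjusted p = 0.00253). The call as labelled was lost without P8 replicate 1 (adjusted p = 0.0513). *Cnp*, an enzyme of the cytoplasmic channels of myelin, fell by 1.30 as labelled, a call kept in 1 of the 7 fits that leave out a library, and was not called against the P8 libraries labelled cervical spinal cord (-0.21), and with tissues summed it was called lower (-0.74, adjusted p = 0.0263). In all, 4 of the 20 genes were higher and 1 lower against the P8 libraries labelled cervical spinal cord, and 5 were higher and 4 lower with tissues summed.

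*Ugt8a*, the enzyme that makes galactosylceramide for myelin, fell in all 3 comparisons. Its values were 464 and 357 CPM at P8, 96.3 and 75.9 CPM at 5 weeks and 8.18, 6.82, 21.6, 44.0 and 37.0 CPM at 9 weeks. The log2 fold change was -3.91 ± 0.48 as labelled, -2.47 against the P8 libraries labelled cervical spinal cord (108 and 168 CPM), and -3.05 with tissues summed. *Trf*, *Cryab*, *Aspa* and *Qdpr*, made by adult oligodendrocytes, were higher at 9 weeks against the P8 libraries labelled cervical spinal cord and with tissues summed, and not called as labelled. *Trf*, transferrin, was at 426 and 348 CPM in the P8 libraries labelled medulla, at 89.3 and 95.2 CPM in those labelled cervical spinal cord and at 252 to 565 CPM at 9 weeks. The median over the 20 genes was 0.66 against the P8 libraries labelled cervical spinal cord and 0.28 with tissues summed, beside 0.34 and 0.26 over all genes tested. *Anln* and *Apod*, both made by adult oligodendrocytes, were called higher in all 3 comparisons, and *Apod* lost its call as labelled without P8 replicate 1 (adjusted p = 0.0798). *Anln* was at 29.4 and 18.3 CPM at P8 and at 152 to 196 CPM at 9 weeks, and *Apod* at 139 and 174 CPM at P8, 473 and 338 CPM at 5 weeks and 842 to 1038 CPM at 9 weeks.

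Astrocyte genes were lower in 5 of 18 members as labelled, with a median of -0.98. *Gfap*, the intermediate filament of astrocytes, was at 1385 and 1674 CPM at P8, at 114 and 245 CPM at 5 weeks and at 213, 259, 137, 192 and 169 CPM at 9 weeks. It fell by 2.96 ± 0.31 (edgeR adjusted p = 0.000118) and kept the call whichever library was left out. The P8 libraries labelled cervical spinal cord held 249 and 447 CPM, and the difference from them was -0.96 ± 0.34 (adjusted p = 0.202). With tissues summed *Gfap* fell by 1.56 ± 0.22. *Aqp4*, the water channel of astrocyte endfeet, fell in all 3 comparisons (log2 fold changes -2.70, -2.02 and -2.25), from 980 and 887 CPM at P8 to 40.9 to 173 CPM at 9 weeks, with 9-week replicate 2 the lowest. *Gja1*, *Aldh1l1* and *Slc7a10* were the other calls as labelled, kept in 4, 1 and 3 of the 7 leave-one-out fits, and were not called against the P8 libraries labelled cervical spinal cord. There 2 of the 18 members were lower and none higher, and with tissues summed 7 were lower and 2 higher.

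Amino acid transporters, which the study examined, were read in the same way. *Slc7a10*, an astrocyte transporter of small neutral amino acids, was at 125 and 82.3 CPM at P8 and at 6.82 to 34.8 CPM at 9 weeks (-2.03 ± 0.47, edgeR adjusted p = 0.0417), and kept its call in 3 of 7 leave-one-out fits. *Slc1a2*, the main glutamate transporter of astrocytes, was at 1242 and 439 CPM at P8, at 263 and 262 CPM at 5 weeks and at 164, 88.7, 115, 493 and 423 CPM at 9 weeks. Its deep 9-week libraries lay above the shallow ones and in the range of the shallow P8 library, and the difference did not pass (-1.62, adjusted p = 0.147). *Slc1a3*, the second glutamate transporter, was at 319 and 329 CPM at P8 and at 130 to 196 CPM at 9 weeks. The groups did not overlap, but the difference did not pass as labelled (-1.08, adjusted p = 0.105). It fell against the P8 libraries labelled cervical spinal cord (-1.77, adjusted p = 0.00533) and with tissues summed (-1.59). *Slc6a9*, a glycine transporter, passed in none of the 3 comparisons (-1.09, -0.82 and -0.78). Without 9-week replicate 2, *Slc1a2*, *Slc1a3* and *Slc6a9* were each called lower as labelled (adjusted p = 0.0175, 0.00601 and 0.0122). *Atxn7* was at 34.9 and 54.9 CPM at P8 and at 14.4 to 57.2 CPM at 9 weeks, with overlapping groups (-0.07 ± 0.51, adjusted p = 0.98). The counts do not separate its long and normal alleles.

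**Figure D3:**
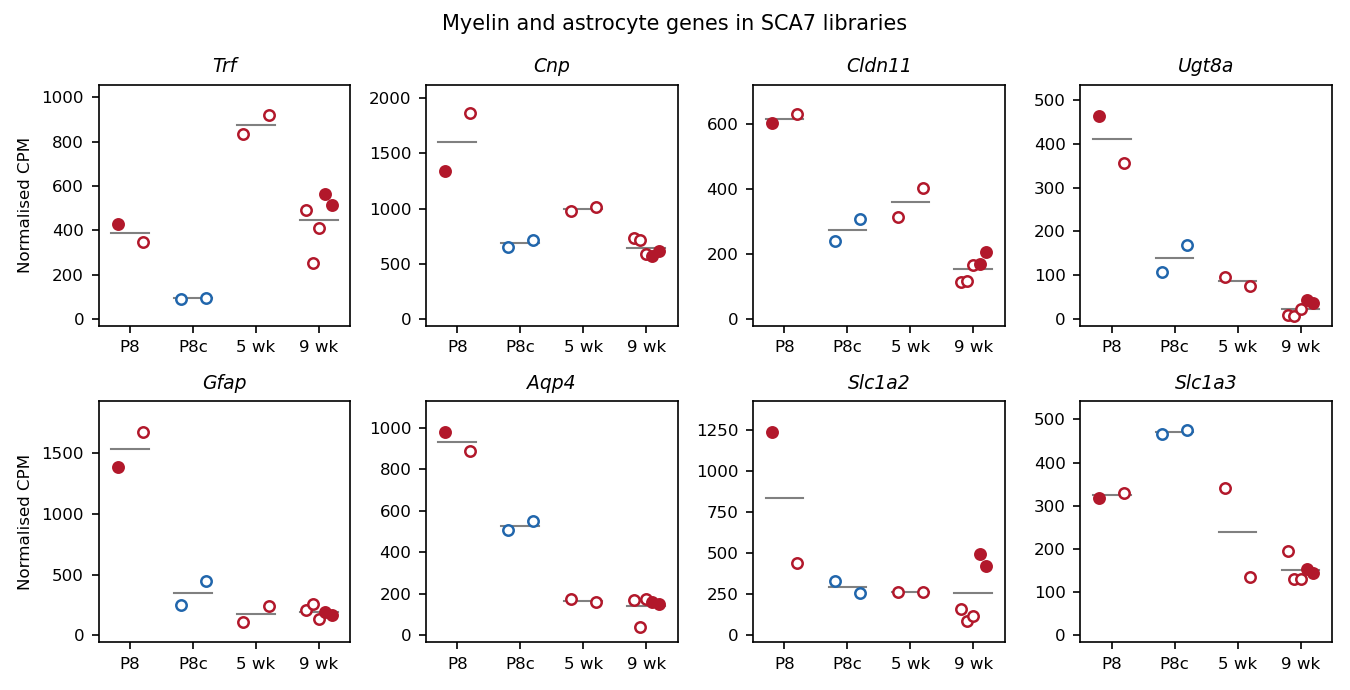
Normalised CPM of 4 myelin genes (top) and 4 astrocyte genes (bottom) in SCA7 libraries labelled medulla at P8, labelled cervical spinal cord at P8 (P8c, blue), and medulla at 5 and 9 weeks; filled points are over 1000000 counts, open points under it, and grey lines are group means. All 9-week libraries lie below the P8 libraries labelled medulla for *Cnp* and *Gfap* but overlap those labelled cervical spinal cord, whereas for *Ugt8a* and *Aqp4* they lie below both.

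Markers of other tissues also differed between P8 and 9-week libraries, some of them only with 1 choice of P8 label or library. Of 7 red blood cell genes 4 were lower, and their sum was 435 and 421 CPM at P8 and 0 to 88.7 CPM at 9 weeks (0 to 26.8 CPM without replicate 2). With tissues summed 6 of 7 were lower, and 3 of 6 against the P8 libraries labelled cervical spinal cord. Of 18 collagen and basement membrane genes 6 were lower as labelled, 4 against the P8 libraries labelled cervical spinal cord and 11 with tissues summed. *Col1a1*, a collagen of fibrous tissue, was at 79.5 CPM in deep and 558 CPM in shallow P8 and at 0 to 20.8 CPM at 9 weeks, and its call was lost without P8 replicate 2 (adjusted p = 0.135). Schwann cell genes had a median log2 fold change of 0.83 among deep and -4.98 among shallow libraries (7 and 3 genes tested). Their summed level was 88.0 and 1345 CPM in the P8 libraries and 40.9 to 159 CPM at 9 weeks, with none of the 8 genes without a count at either age. In P8 replicate 2, where that sum was higher, the myelin list summed to 52956 CPM, against 22285 CPM in P8 replicate 1 and 10786 to 38746 CPM at 9 weeks. The part of peripheral nerve in the P8 levels of shared myelin genes was not tested. *Ttr*, the carrier protein made by choroid plexus, was at 0.559 and 9.15 CPM in the P8 libraries labelled medulla, at 649 and 5676 CPM in those labelled cervical spinal cord and at 2.24 to 130 CPM at 9 weeks, so its difference turned from 5.25 (adjusted p = 0.20) to -6.60. None of 13 microglia genes was called as labelled, beside 1.48% of all genes tested.

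Genes induced by glucocorticoids were higher in 3 of 12 members and lower in none, with a median of 1.79. *Plin4*, a lipid droplet protein, was at 0.755 and 0 CPM at P8, at 8.76 and 8.44 CPM at 5 weeks and at 40.9, 68.2, 50.5, 73.6 and 45.4 CPM at 9 weeks. The fitted rise was 6.37 ± 0.76 (edgeR adjusted p = 0.000482). P8 replicate 1 held 27 counts and P8 replicate 2 none, against 5, 10, 7, 2869 and 1661 counts at 9 weeks, and the level from pooled counts was 79.6 times as high. *Zbtb16*, a transcription factor, was at 16.0 and 9.15 CPM at P8, at 43.8 and 50.6 CPM at 5 weeks and at 49.1 to 177 CPM at 9 weeks. *Sult1a1*, a sulfotransferase, rose by 4.69 as labelled, and against the P8 libraries labelled cervical spinal cord its difference was 1.13 (adjusted p = 0.472). The summed list was at 352 and 393 CPM at P8, 388 and 420 CPM at 5 weeks, 764 to 1371 CPM at 9 weeks in SCA7 and 288 to 710 CPM at 9 weeks in WT, with 9-week replicate 2 at the top. *Plin4* and *Zbtb16* were called in all 3 comparisons. As labelled, *Plin4* and *Sult1a1* lost the call without P8 replicate 1 (adjusted p = 0.0512 and 0.142), and *Zbtb16* lost it without either P8 library (largest adjusted p 0.200). Of the list, 4 members were higher against the P8 libraries labelled cervical spinal cord and 7 with tissues summed. *Neat1*, a nuclear RNA, was at 41.1 and 27.4 CPM at P8 and at 172 to 372 CPM at 9 weeks, and was not called against the P8 libraries labelled cervical spinal cord (1.72, adjusted p = 0.0565). *Efr3a*, *Pex5l*, *Fam107a* and the unnamed locus *LOC105244487* completed the 10 higher genes taken by the same rule as the lower ones, with rises by 2.49, 2.32, 3.99 and 4.64. All 4 were called in the 3 comparisons, and all 4 lost the call as labelled without P8 replicate 1 (adjusted p up to 0.186), as did *Neat1* (0.0636). *Efr3a*, *Pex5l* and *Neat1* lost it without P8 replicate 2 too.

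The remaining lists held 0 to 2 calls each, beside 1.48% of all genes tested. At that share, no call in a list of this size says nothing about its genes. None of the 8 neurofilament, 12 early receptor, 11 heat shock, 13 p53 target, 13 clock output, 12 immediate early, 8 choroid plexus and 6 forebrain genes was called as labelled. Clock output genes had a median of 1.08 and summed to 412 and 366 CPM at P8 and 828 to 880 CPM at 9 weeks. Imprinted growth genes held 1 call of 18 (*H19*), endothelial genes 1 of 14 (*Rgs5*), motor neuron genes 1 of 10 (*Chodl*) and cerebellar genes 1 of 12 (*Pvalb*). Hindbrain position genes held 2 of 17 (among them *Tph2*) and chromatin genes 2 of 14 (*Dnmt3a* and *Uhrf1*). Of these, *Rgs5* and *Uhrf1* were called in 1 and *Tph2* in 2 of the 7 leave-one-out fits, and *Chodl* lost its call without P8 replicate 1 (adjusted p = 0.478). Against the P8 libraries labelled cervical spinal cord and with tissues summed, 2 and 5 of the clock output genes were higher, 1 and 3 of the choroid plexus genes were lower, and none of the hindbrain position genes was called. *Hoxc8* had 6423 and 16 counts in the P8 libraries labelled medulla and none in any 9-week library, at least 4545-fold lower from pooled counts with the floor of 3 counts over the group. Both P8 SCA7 libraries labelled cervical spinal cord held 0 CPM of it. With tissues summed its log2 fold change was -0.82 (edgeR adjusted p = 0.283), so age and labelled tissue cannot be told apart for it.

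**Figure D4:**
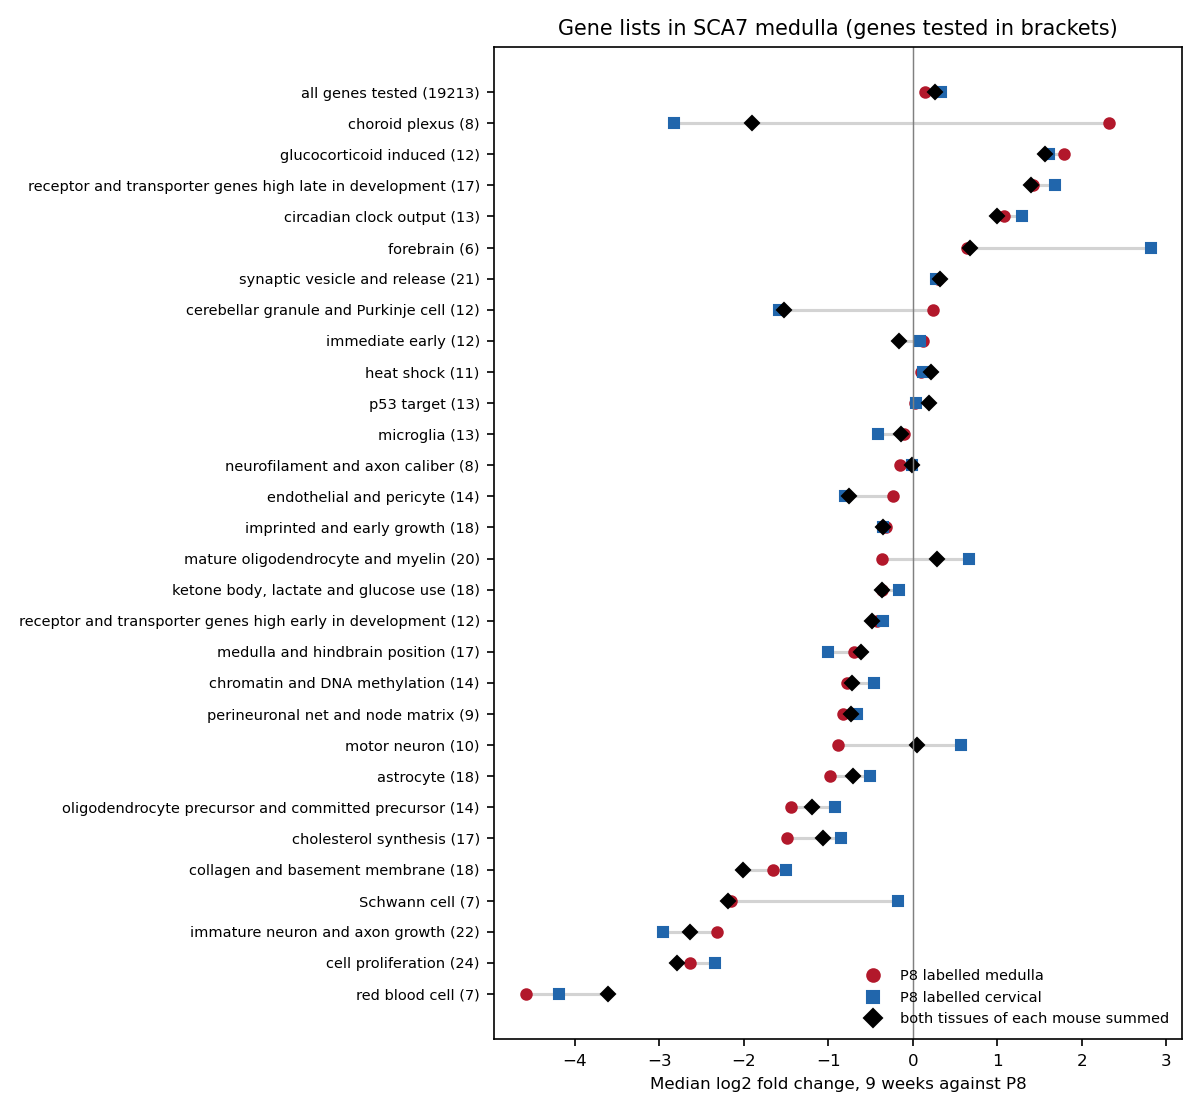
Median log2 fold change from P8 to 9 weeks of 29 gene lists and of all genes tested, with the P8 libraries labelled medulla (red), those labelled cervical spinal cord (blue) and the summed tissues of each mouse (black); the number of genes tested as labelled is in brackets. Immature neuron, proliferation and red blood cell lists lie between -2 and -5 in all 3, whereas the myelin, choroid plexus, cerebellar, motor neuron and immediate early lists change sign.

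The change from P8 to 9 weeks was then set against that of the WT medulla, with 5 against 2 libraries in each genotype. The P8 WT libraries were both deep and carried the same spinal pattern, so the label question touches both genotypes. No gene of 21044 tested passed in edgeR's test of the difference (0%). At an unadjusted p under 0.05 there were 770 genes, and DESeq2 called 1. The median SE of the difference was 0.94 over all genes, and 0.51 over those with 10 counts in a shallow SCA7 library. Differences of that size were not detectable, and larger ones could go uncalled too. In simulated counts of these libraries (dispersion 0.05), 57 of 102 4-fold differences were recovered. Among the genes named here *Apod* had the smallest p. It rose by 2.61 in SCA7 and by less in WT, a difference of 1.63 ± 0.28 (adjusted p = 0.46). *Cldn11* changed by -1.96 in SCA7 and by -0.75 ± 0.20 in WT, a difference of -1.14 ± 0.34 (unadjusted p = 0.00406). For *Ugt8a* the difference was -1.81 ± 0.58, for *Slc6a9* -1.37 ± 0.49 and for *Plin4* 4.34 ± 1.35. *Snap25* changed by 2.37 and 2.43, a difference of 0.00 ± 0.49, and *Kcna1* by 2.30 and 2.12. *Tubb2b* changed by -3.88 and -3.11. None of these differences passed.

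**Figure D5:**
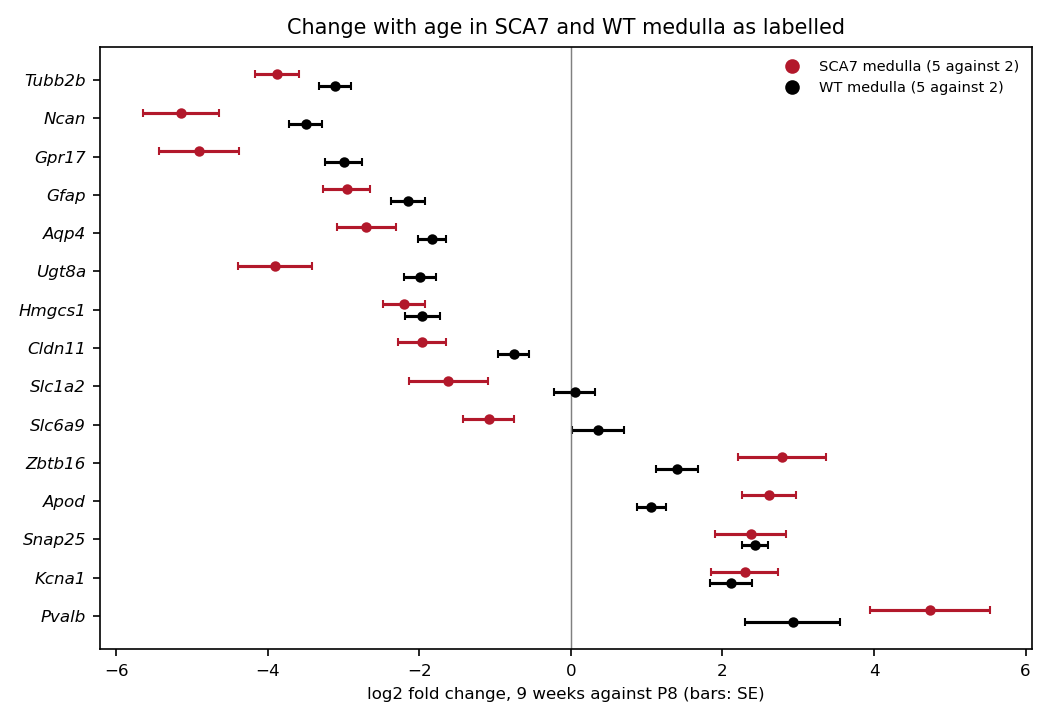
log2 fold change from P8 to 9 weeks (points) with its SE (bars) for 15 genes in SCA7 (red) and WT (black) medulla as labelled, 5 against 2 libraries each. *Snap25*, *Kcna1* and *Hmgcs1* lie close together in both genotypes, *Cldn11* and *Apod* lie apart, and no difference between genotypes passed the adjusted threshold.

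Set against the SCA7 cervical spinal cord of the same 7 mice, with the mouse as a block, 9 of 19635 genes differed in their change (0.0458%). Among them were *Ttr*, *Otx2*, *Slc17a7*, *Hoxb9*, *Hoxc8*, *Gfap*, *Trf* and *Apod*. As labelled, *Gfap* fell by 2.96 in the medulla and was at 0.27 in the cervical spinal cord, a difference of -3.28 ± 0.28 (edgeR adjusted p = 0.00393). *Trf* changed by 0.24 and 2.73, and *Apod* by 2.61 and 5.00. Without P8 mouse 1 no gene was called, without P8 mouse 2 there were 151, without 9-week mouse 2 there were 79, and without 9-week mouse 1 or 3 there were 3 each. Each of these contrasts sets P8 libraries of one labelled tissue against those of the other, so the tissue and the P8 label cannot be told apart in them.

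At 5 weeks both SCA7 medulla libraries were shallow, and their levels are a description. Summed immature neuron genes were at 9063 and 7959 CPM at P8, up to 2952 CPM at 5 weeks and 1815 to 2558 CPM at 9 weeks. Precursor genes were at 2336 and 1711 CPM, then 1042 to 1333 CPM, then 973 to 1144 CPM in 4 libraries at 9 weeks and 2475.8 CPM in 9-week replicate 2, above both P8 libraries. Cholesterol synthesis genes went from 3116 and 3101 CPM to 1577 to 1738 CPM and then to 1027 to 1110 CPM. Late receptors and channels stood at 3232 to 3544 CPM at 5 weeks, inside the 9-week range. Without 9-week replicate 2 that range began at 3271 CPM, above the lower 5-week value. Glucocorticoid-induced genes at 5 weeks lay with P8, and *Gpr17*, *Hmgcs1* and *Ugt8a* lay between the 2 other ages.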

How the data were processed

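RNA was taken from flash-frozen medulla and cervical spinal cord. The deposited files hold raw counts of reads per gene symbol, made by the authors from uniquely mapped reads (genome build mm10 per the labels). The aligner and counter are not given in the sources used here. Each table held 35976 symbols, of which 32501 matched RefSeq (GRCm38.p6). A gene entered a comparison where any of its libraries held 10 counts or more. Tests used edgeR 4.0.16 (TMM, quasi-likelihood with bias adjustment, Benjamini-Hochberg, threshold 0.05, R 4.3.3). When tested on simulated data of the 7 libraries together, the settings of earlier releases made more wrong calls, and no more among deep or shallow libraries alone. Levels are CPM on 1 TMM scale over all 35 libraries. DESeq2 1.42.0 and limma 3.58.1 were alternatives, beside other normalisations, filters, a depth term, thinning and leaving out each library. 

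The members and the 29 gene lists (402 genes) were chosen with earlier results of these data known. Genes were named by rule: in each list up to 4 members with the highest shallow counts and called members against the list's main direction, the 10 higher and 10 lower genes that ranked first by adjusted p, if separated between ages, counted in a shallow library and of 1 sign at both depths, and genes called in a difference. Other called or uncalled members of lists, and genes called among shallow libraries, were named after their values were seen. Some genes that these rules name are not reported here.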

Additional observations from a re-analysis of the deposited data

Results flagged for a closer look

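Among the 5 9-week libraries, 114 quantities were read for a library far from the other 4 (Dixon's 95% critical value 0.71), which chance exceeds in about 1 of 20 groups. There were 24 such values, 20 of them in replicate 2, the library in which mitochondrial genes took 60.68% of the counts (3.499% to 15.63% in the others).

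In replicate 2, genes of glia and axons that stood above the other 4 libraries were *Mobp* (3581 CPM, others at most 1447), *Bcas1* (1930, others at most 490.8), *S100b* (1923, others at most 310.9) and *Nefm* (3369, others at most 1067). *Hsp90aa1* (2203 CPM), *Cdkn1a* (327.4 CPM), *Smarca4* (381.9 CPM), *Smarca2* (532 CPM), *Glra1* (238.7 CPM), *Hoxa5* (115.9 CPM), *Ttr* (129.6 CPM), *Marcksl1* (95.48 CPM) and *Cldn5* (54.56 CPM) were also highest there. Below the others in replicate 2 were *Ptprz1* (13.64 CPM, others at least 89.95), *Sparcl1* (825.3 CPM, others at least 1423), *Snap25* (948 CPM, others at least 2383), *Slc12a5* (191 CPM), *Aldoa* (770.7 CPM) and *Aqp4* (40.92 CPM). In replicate 4 *Col1a2* (56.68 CPM) was high, in replicate 5 *Hoxb9* (0.02733 CPM, a single count), and in replicate 1 *Dgkk* (0 CPM) and *Nnat* (24.53 CPM) were flagged as low. The level of 3 counts in replicate 1 was 24.53 CPM. *Dgkk* lay at 6.367 to 8.263 CPM in the others, so its 0 cannot be told from them, and *Nnat* lay at that level.

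The change from P8 to 9 weeks differed between SCA7 medulla and cervical spinal cord, by edgeR's interaction test, in 9 genes. For those named here, the log2 change in medulla minus that in cervical spinal cord was 14.31 for *Ttr*, 15.11 for *Otx2*, 11.82 for *Slc17a7*, -2.42 for *Apod*, -2.51 for *Trf*, -3.28 for *Gfap*, -16.86 for *Hoxb9* and -27.66 for *Hoxc8*. Fitted values of genes with a group at or near 0 depend on the prior count and are no bounds.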

How the results depend on the processing

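For the P8 to 9-week change, 284 calls became 91 with 10 counts in every library, 151 without a filter, 119 with thinned libraries, 174 with a depth term, 1130 with all medulla libraries in 1 fit, 8050 by limma-voom (4740 higher, 3310 lower), 3541 with the edgeR settings of earlier releases and 1299 with tissues summed. Leaving out a library gave 66 to 1755. The cause was not tested. DESeq2 called 355 (123 higher, 232 lower), and library totals 312. The replicate number as a replicate block gave 0 calls (895 at an unadjusted p under 0.05). Same-numbered mice differ, and deviations correlated at -0.63 for replicate 1 and 0.55 for replicate 2, so the numbers do not pair the samples. Deep libraries gave 6405 calls by DESeq2, and leaving 1 out was not run, since no residual degrees of freedom remain. Shallow libraries gave 11 calls by DESeq2, 20 with library totals, 1 with 10 counts in every library, 0 without a filter, and 0 to 331 with a library left out. The genotype difference gave 1 call by DESeq2, 1 with 10 counts in every library, 728 by limma-voom, 33 with the replicate block, and 0 to 12 with a library left out, 12 of them without P8 WT replicate 1. The tissue difference gave 202 calls by DESeq2, 0 with a depth term, 27 with no replicate block (no mouse block), and 0 to 151 with a mouse left out. Signs turned by limma-voom for *C1qc* (0.71), *Fdft1* (-0.56) and *Pmp22* (1.15). Against P8 libraries labelled cervical spinal cord they turned for *Ttr* (-6.60), *Zic1* (-2.11), *Calca* (10.47) and *Hoxc6* (6.06), and with tissues summed for *Ttr* (-7.62) and *Zic1* (-1.98). *Calca* and *Hoxc6* had no count in those P8 libraries, both shallow, so their fitted values (SE 2.53 and 7.73) show no reversed direction. Of 1017 alternatives for 54 called named genes, 817 kept call and direction, and 199 lost the call. In a shallow library a count of 0 leaves room for a level of up to 20.5 to 27.4 CPM.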
